A study of Mus musculus with 2 samples.

Results

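The cytosolic ribosomal protein genes are the nuclear genes whose products, with the ribosomal RNAs, make up the cytoplasmic ribosome. They were chosen by symbol: genes named Rpl or Rps with a number, then at most a letter (a, l or x) and any further digits, plus Rplp0, Rplp1, Rplp2 and Rpsa. The rule picked 83 of the 32285 features in the deposited matrices, 32 of the small and 51 of the large subunit. It left out 18 other symbols that begin with Rpl or Rps, of which 11 are kinase or binding-protein genes, 5 are named as pseudogenes and 2 are the copies Rps27rt and Rpl36al. Rack1 and Fau also encode ribosomal proteins under other names and are described beside the family.

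The ribosome's small subunit reads the mRNA and its large subunit joins amino acids, and cells make the proteins of both in near-equal numbers. Most of these mRNAs begin with a run of pyrimidines, the terminal oligopyrimidine tract, through which mTORC1 signalling sets how well they are translated. Dividing progenitors, such as those of the external granule layer of the young cerebellum, are known for high ribosome production, and maturing neurons for less of it.

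The data were 2 droplet-based single-cell RNA libraries (10x 3′ chemistry v3.1) from cerebellar lobules III-IV of newborn mice (postnatal day 1). One was from Cxcr4+/1013 mice, which carry 1 copy of a knock-in allele that truncates the tail of the chemokine receptor Cxcr4 (the mutant library), and the other from Cxcr4+/+ littermates (the control library). Both carry the strain label B6.129S2-Cxcr4tm1.1Bala, and no source used here says how many animals were pooled. The protocol text writes Cxcr4+/- for the mutant, and the genotype label was used. With 1 library per genotype there is no replicate check, so every ratio compares 2 libraries and every interval covers counting error only.

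The 8194 barcodes kept in the mutant library held 126145234 unique molecular identifiers (UMIs, single counted mRNA molecules), and the 8353 kept in the control library held 114764187. The median barcode had 13557.5 UMIs in the mutant and 12101 in the control library, with median mitochondrial shares of 2.76% in the mutant and 3.1% in the control library. Cxcr4 itself had 24.1 counts per 1000000 UMIs (CPM) in the mutant and 27.1 CPM in the control library, but counts per gene do not tell the 2 alleles apart, so they do not check the genotype. Barcodes were assigned to classes by marker lists, and 65.9% of mutant and 63.4% of control barcodes received a class. Of 17 classes, 11 had at least 50 barcodes in each library and are called by their gate. Among 22 checks with genes that no list used, 12 were highest in the matching gate in both libraries, among them Pax6 in the progenitor gate, Pcp4 in the Purkinje gate and Fabp7 in the astroglia gate; Zic1 and Cbln1, checked for granule cells, were highest in the unipolar brush cell gate, Gap43 in the Lhx9 Meis2 gate and Sox9, checked for astroglia, in ependymal cells. The interneuron checks Sst and Nxph1 were highest in the Gata3 Tal1 gate in the mutant and in the interneuron gate in the control library. Cacna1a, checked for unipolar brush cells, was highest in Purkinje cells. Dlx1, checked for interneurons, and Olig3, checked for the oligodendrocyte lineage, were nearly or fully undetected in those gates. No check of the granule neuron or interneuron gate was highest there in both libraries. The kept barcodes of the 2 libraries shared 18 barcode sequences.

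Sequences of 3 members are given first, since the results turn on short proteins and on a pair of close copies. Rps27 (chr3:90212522-90213651, minus strand, GRCm38) and Rps27l (chr9:66946086-66949516, plus strand) encode zinc-finger proteins of the small subunit, and the human RPS27L gene is known as a p53 target. Their coding sequences, from GENCODE M21, both have 252 bases and are 76.2% identical. The 60 differing bases are in capitals, 53 of them at the last base of a codon.
Rps27: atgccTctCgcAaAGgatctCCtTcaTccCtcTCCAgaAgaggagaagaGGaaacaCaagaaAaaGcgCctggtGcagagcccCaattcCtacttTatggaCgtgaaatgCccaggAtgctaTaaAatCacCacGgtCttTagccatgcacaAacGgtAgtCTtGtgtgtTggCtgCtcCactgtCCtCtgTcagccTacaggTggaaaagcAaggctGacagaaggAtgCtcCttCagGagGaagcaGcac
Rps27l: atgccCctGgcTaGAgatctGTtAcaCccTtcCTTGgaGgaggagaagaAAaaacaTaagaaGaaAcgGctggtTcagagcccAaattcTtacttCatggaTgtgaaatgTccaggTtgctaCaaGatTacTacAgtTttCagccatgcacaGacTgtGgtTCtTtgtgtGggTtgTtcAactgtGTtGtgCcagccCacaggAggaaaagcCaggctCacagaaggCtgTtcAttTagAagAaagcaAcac

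Rpl41 (chr10:128548114-128549305, minus strand) encodes the shortest member, a basic peptide of 25 amino acids at the contact between the subunits. Capitals mark the start codon, and the stop codon is not included.
Rpl41: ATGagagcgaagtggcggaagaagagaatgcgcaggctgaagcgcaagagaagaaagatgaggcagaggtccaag

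In the mutant library the family held a smaller share of all UMIs than in the control library. Over all kept barcodes the share was 8.03% in the mutant and 9.16% in the control library, a log2 ratio of -0.19 (95% exact interval -0.19 to -0.19), or 0.876 times the control level. Median shares over single barcodes were 6.97% in the mutant and 7.45% in the control library, with quartiles of 4.98% and 9.87% in the mutant and 5.15% and 11.1% in the control library, so the ranges overlap. Weighting the mutant library's class shares by the control library's class mix gave 8.11%, against 8.03% observed. The mix was that of 11 gates, with all other barcodes taken as 1 class. That class held 2796 mutant and 3057 control barcodes without a gate, and 27 and 182 fibroblasts. Its inner mix was not adjusted, so the value accounts for only part of the cell mix. Both libraries held cells of both sexes: the share was 7.70% in the mutant and 9.04% in the control library in female cells, and 8.30% and 9.37% in male cells.

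Among the 11 gates compared, the 4 with the highest shares were the same in both libraries, as was the lowest. Granule progenitors, the dividing Atoh1-expressing cells of the outer cerebellum, had 13.8% of their UMIs in the family in the mutant and 14.9% in the control library. Microglia or macrophages, the resident immune cells, had 14.0% and 14.9%. By summed UMIs these 2 gates did not differ beyond their counting intervals in the control library, and in the mutant library microglia were just above progenitors. By the median over single barcodes microglia were higher in both libraries. They had 16.4% against 14.1% in progenitors in the mutant library, and 16.6% against 15.3% in the control library. Oligodendrocyte-lineage cells followed with 9.44% in the mutant and 11.4% in the control library, then astroglia with 8.21% and 9.88%.

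Neuronal gates lay lower, and their order differed between the libraries: Purkinje cells led them in the mutant and the Lhx9 Meis2 gate in the control library. The share in granule neurons, the progeny of the progenitors, was 6.19% in the mutant and 7.13% in the control library. Purkinje cells, the output neurons of the cortex and the deepest barcodes with medians of 34336 and 32370.5 UMIs, had 6.73% and 6.94%. GABAergic interneurons had 6.37% and 7.05%. The gate of Lhx9- and Meis2-expressing glutamatergic neurons had 5.94% in the mutant and 7.52% in the control library, that of Gata3- and Tal1-expressing GABAergic neurons 5.46% and 6.69%, and unipolar brush cells, an excitatory interneuron, 5.64% and 5.92%. Ependymal cells, the ciliated lining of the ventricle, were lowest in both libraries, with 5.09% and 5.58%.

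**Figure D1:**
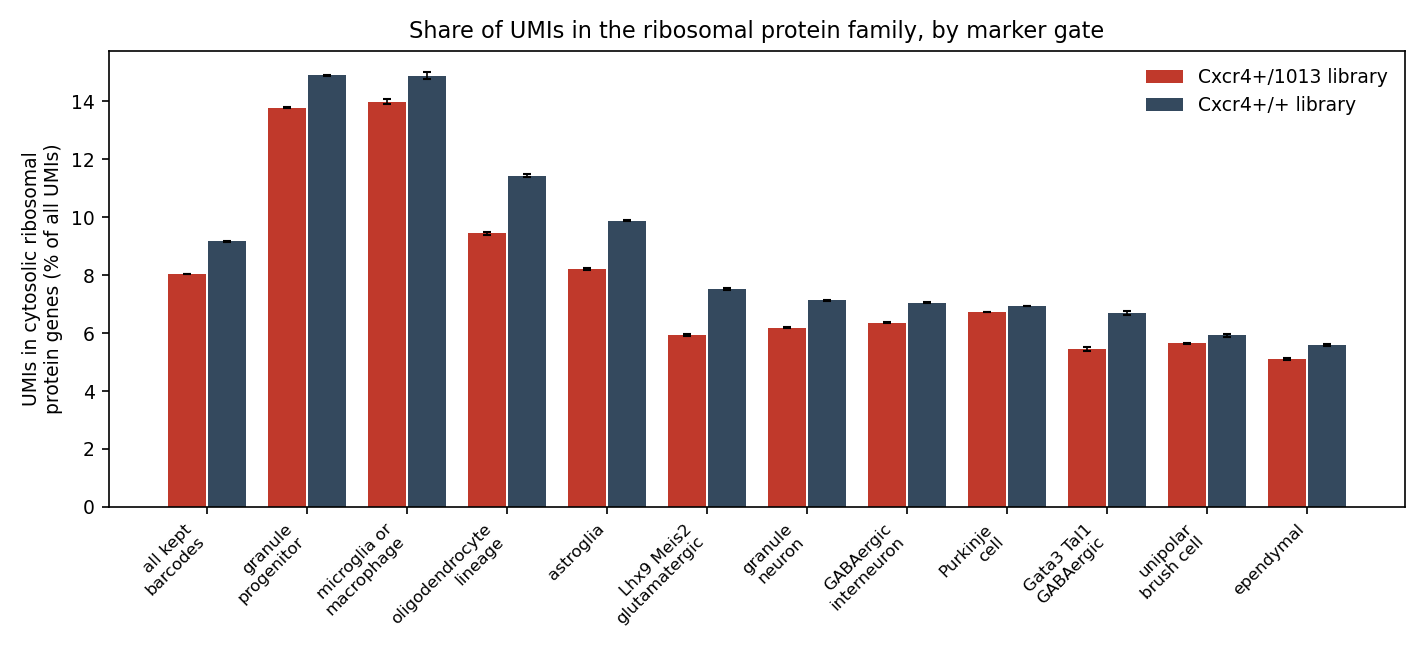
Bars give the percent of all UMIs that fell in the 83 ribosomal protein genes, for all kept barcodes and for 11 marker gates ordered by the control library; red is the Cxcr4+/1013 library, dark blue the Cxcr4+/+ library, and error bars are 95% Poisson intervals of the counts. The red bar is below the blue bar in every gate, and the progenitor and microglia gates stand above the others in both libraries.

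The family share was lower in the mutant library in 11 of 11 gates, by log2 ratios from -0.34 in the Lhx9 Meis2 gate to -0.04 in the Purkinje gate, with a median of -0.15. With every barcode weighted equally the ratio was 0.071 in the Purkinje and 0.035 in the unipolar brush cell gate, and under stricter gates it was 0.0065 in the ependymal gate. The gates come from the same 2 libraries and are not repeats of the comparison. Within the progenitor gate, dividing barcodes, with at least 3 of 8 cell-cycle markers, had 13.5% in the mutant and 14.5% in the control library. Progenitor barcodes below that number had 16% and 17.4%, a log2 ratio of -0.11 in both subsets. Summed haemoglobin genes, which mark red blood cells, stood at 2113 CPM in the mutant and 14.0 CPM in the control library in the unipolar brush cell gate, and at 12.6 and 424 CPM in astroglia, and their part in these gates' ratios was not tested. Fibroblasts, at 27 and 182 barcodes too few in the mutant library for the class comparison, had 15.1% in the mutant and 16.8% in the control library, and the smaller endothelial and mural gates had 14.2% and 15.0%, and 10.2% and 11% in the same order.

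In shallow barcodes the direction differed by gate. Among all those under 5000 UMIs the family held 5.70% in the mutant and 4.63% in the control library, a log2 ratio of 0.30. In the granule neuron gate the same barcodes gave 4.34% and 2.74%, a log2 ratio of 0.66. In the astroglia gate they gave 6.24% in the mutant and 6.42% in the control library, a log2 ratio of -0.04. Median mitochondrial shares of all barcodes under 5000 UMIs were 4.26% in the mutant and 2.53% in the control library, and their part in the result was not tested. From 5000 to 10000 UMIs the family's log2 ratio was -0.26, from 10000 to 20000 it was -0.28, and from 20000 upward it was -0.13.

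In 5 gates the direction differed with mitochondrial content. Purkinje barcodes over 5% mitochondrial UMIs, 414 in the mutant and 412 in the control library, had family shares of 6.74% and 7.05%. The 87 mutant and 158 control Purkinje barcodes at or below 5% had shares of 6.55% and 5.59%, a log2 ratio of 0.23, and median depths of 7553 and 3883.5 UMIs. These subsets also differ in depth. In 4 other gates the turn was the other way round, with higher shares in the mutant library above 5%: the log2 ratio there was 0.23 in unipolar brush cells (12 mutant and 17 control barcodes), 0.32 in the Gata3 Tal1 gate (5 and 3), 0.06 in the oligodendrocyte lineage (5 and 16) and 0.33 in microglia (12 and 15).

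The single members did not share one ratio. Of the 83, 80 had at least 50 UMIs over both libraries. Among these, 69 were lower and 11 higher in the mutant library, against 51.5% of all 19414 genes lower and 48.5% higher. Their median log2 ratio was -0.23, and that of all genes -0.01. Intervals of 68 members lay below 0 and those of 11 above, and the 1 left was Rpl36a, a large-subunit protein named here after its value was seen, with 534 CPM in the mutant and 538 in the control library. Each of the 80 had at least 6954 UMIs in the mutant and 6590 in the control library, so even small differences clear 0. How many of all genes had intervals clear of 0 was not counted.

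A log2 ratio of -0.32 or lower was found for 19 members of 80, against 16% of all genes, and one of 0.32 or higher for 5, against 8% of all genes. The 19 became 31 in female cells alone and 37 in the barcodes that passed stricter gates. The share of all genes was not counted in those subsets, and the 16% does not apply to them. The 5 are Rps29, Rps28, Rpl38, Rps27 and Rps21. No member reached 1.5-fold in either direction, against 6.92% of all genes lower and 2.19% higher by that much. The shares of all genes include genes with far fewer UMIs than any of these members, whose ratios scatter more by counting error.

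**Figure D2:**
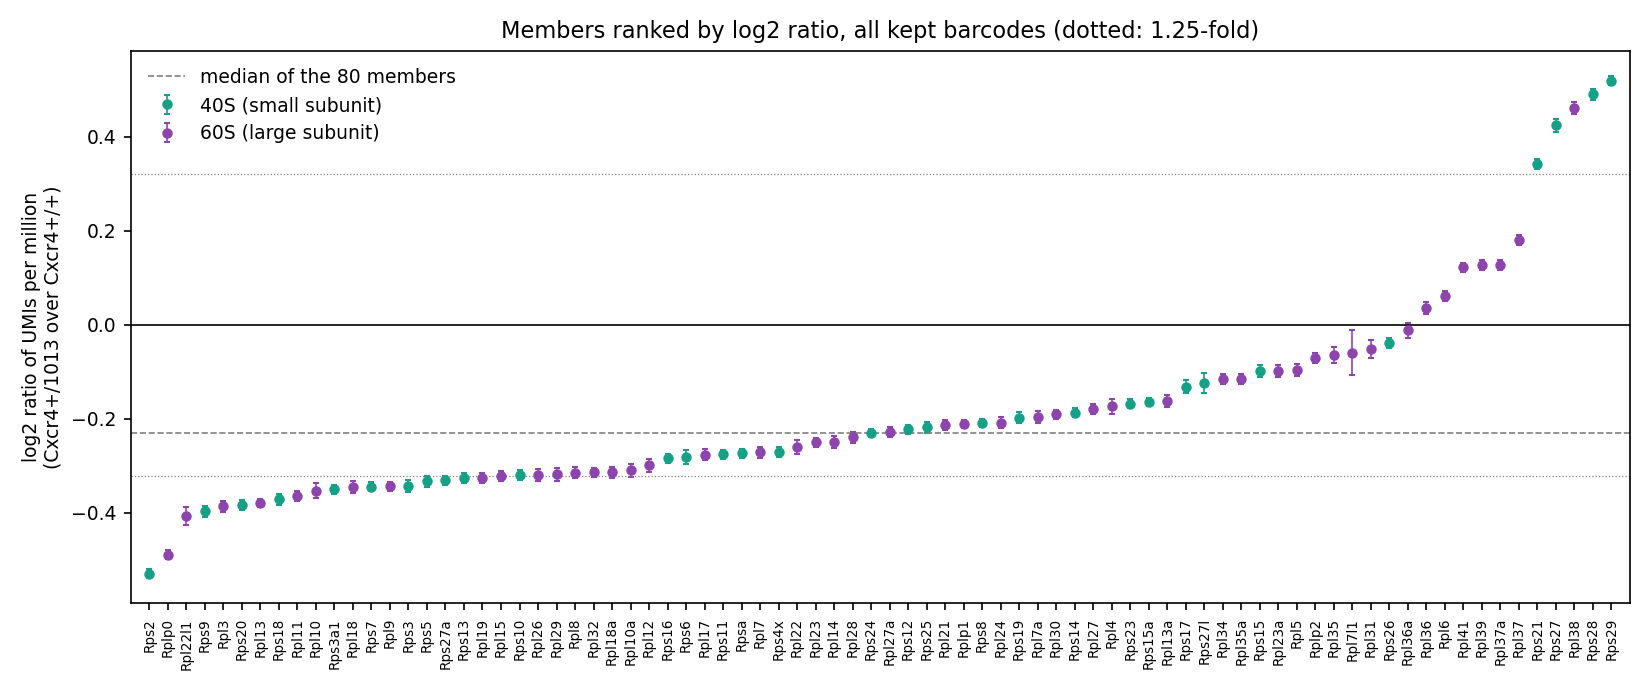
Points give each member's log2 ratio of CPM (Cxcr4+/1013 over Cxcr4+/+) over all kept barcodes for the 80 members with at least 50 UMIs, ordered by the ratio, with 95% exact counting intervals; green marks the small and purple the large subunit, the dashed line the members' median and dotted lines log2 ratios of -0.32 and 0.32. Rps29, Rps28, Rpl38, Rps27 and Rps21 stand apart at the upper end, and Rps2 and Rplp0 at the lower end.

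Among small-subunit proteins, the highest ratios were those of 4 short proteins. Rps29, a zinc-binding protein of 56 amino acids with the highest ratio of all members, had 1686 CPM in the mutant and 1176 in the control library, a log2 ratio of 0.52 (0.51 to 0.53). Rps28, of 69 amino acids and placed near the mRNA exit, had 1206 and 858, a log2 ratio of 0.49. Rps27 had 783 in the mutant and 583 in the control library, a log2 ratio of 0.42 (0.41 to 0.44). Rps21, of 83 amino acids, had 1285 and 1014, a log2 ratio of 0.34. These 4 were higher in the mutant library in 11 of 11 gates.

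At the other end of the small subunit stood Rps2, which lies on the mRNA entry side. It had 1186 CPM in the mutant and 1711 in the control library, a log2 ratio of -0.53 (-0.54 to -0.52), the lowest of the 80. Rps9, close to the decoding centre, had 1006 and 1324, a log2 ratio of -0.40. Rps20 and Rps18, proteins of the small subunit's head, had log2 ratios of -0.38 and -0.37. All 4 were lower in the mutant library in every gate compared.

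Other small-subunit proteins with known roles lay in between. Rps6, the substrate of the S6 kinases downstream of mTORC1, had 522 CPM in the mutant and 634 in the control library, a log2 ratio of -0.28. Rpsa, also called the laminin receptor protein, had 1214 and 1467 (log2 ratio -0.27), and the X-linked Rps4x 1224 and 1476 (log2 ratio -0.27). Rps19, whose human gene is mutated in Diamond-Blackfan anaemia, had 971 and 1114, a log2 ratio of -0.20. Rps6 was lower in 10 of 11 gates and Rps19 in 9 of 11.

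In the large subunit, Rpl38 led the higher members. Its loss is known in mice for altered skeletal patterning. It had 986 CPM in the mutant and 715 in the control library, a log2 ratio of 0.46 (0.45 to 0.47), and was higher in 11 of 11 gates. Rpl37 and Rpl37a, zinc-binding proteins of 97 and 92 amino acids, had log2 ratios of 0.18 and 0.13. Rpl39, which lines the exit tunnel of the new peptide, had 1061 and 971 (log2 ratio 0.13), and Rpl41 had 1610 and 1479 (log2 ratio 0.12).

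Rpl41 was higher in 11 of 11 gates, Rpl37 in 10, and Rpl37a and Rpl39 in 9. For Rpl39 the exceptions were the Lhx9 Meis2 gate, at a log2 ratio of -0.05, and the Gata3 Tal1 gate, at -0.20, both with intervals over 0. Rpl6 was the 1 protein above the members' median length among the 11 higher members, and is named here after its value was seen. It has 296 amino acids and had 1181 CPM in the mutant and 1132 in the control library, a log2 ratio of 0.06.

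The lowest large-subunit member was Rplp0, the base of the stalk that binds elongation factors. It had 1182 CPM in the mutant and 1658 in the control library, a log2 ratio of -0.49 (-0.50 to -0.48), and was lower in 11 of 11 gates. The stalk's other proteins, Rplp1 and Rplp2, which bind Rplp0 as dimers, had ratios nearer 0. Rplp1 had 1572 and 1819 (log2 ratio -0.21). Rplp2 had 1040 in the mutant and 1092 in the control library (log2 ratio -0.07) and was lower in 7 of 11 gates.

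Rpl3, a protein near the catalytic centre, had 828 CPM in the mutant and 1082 in the control library, a log2 ratio of -0.39. Rpl13 had 1641 and 2134, a log2 ratio of -0.38. Rpl10, which joins the large subunit late in its assembly, had 447 and 570, a log2 ratio of -0.35. Rpl5 and Rpl11 act together, as both bind Mdm2 with a small ribosomal RNA when ribosome assembly fails, yet their ratios differed. Rpl11 had 1095 CPM in the mutant and 1410 in the control library, a log2 ratio of -0.36, and Rpl5 had 845 and 904, a log2 ratio of -0.10.

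**Figure D3:**
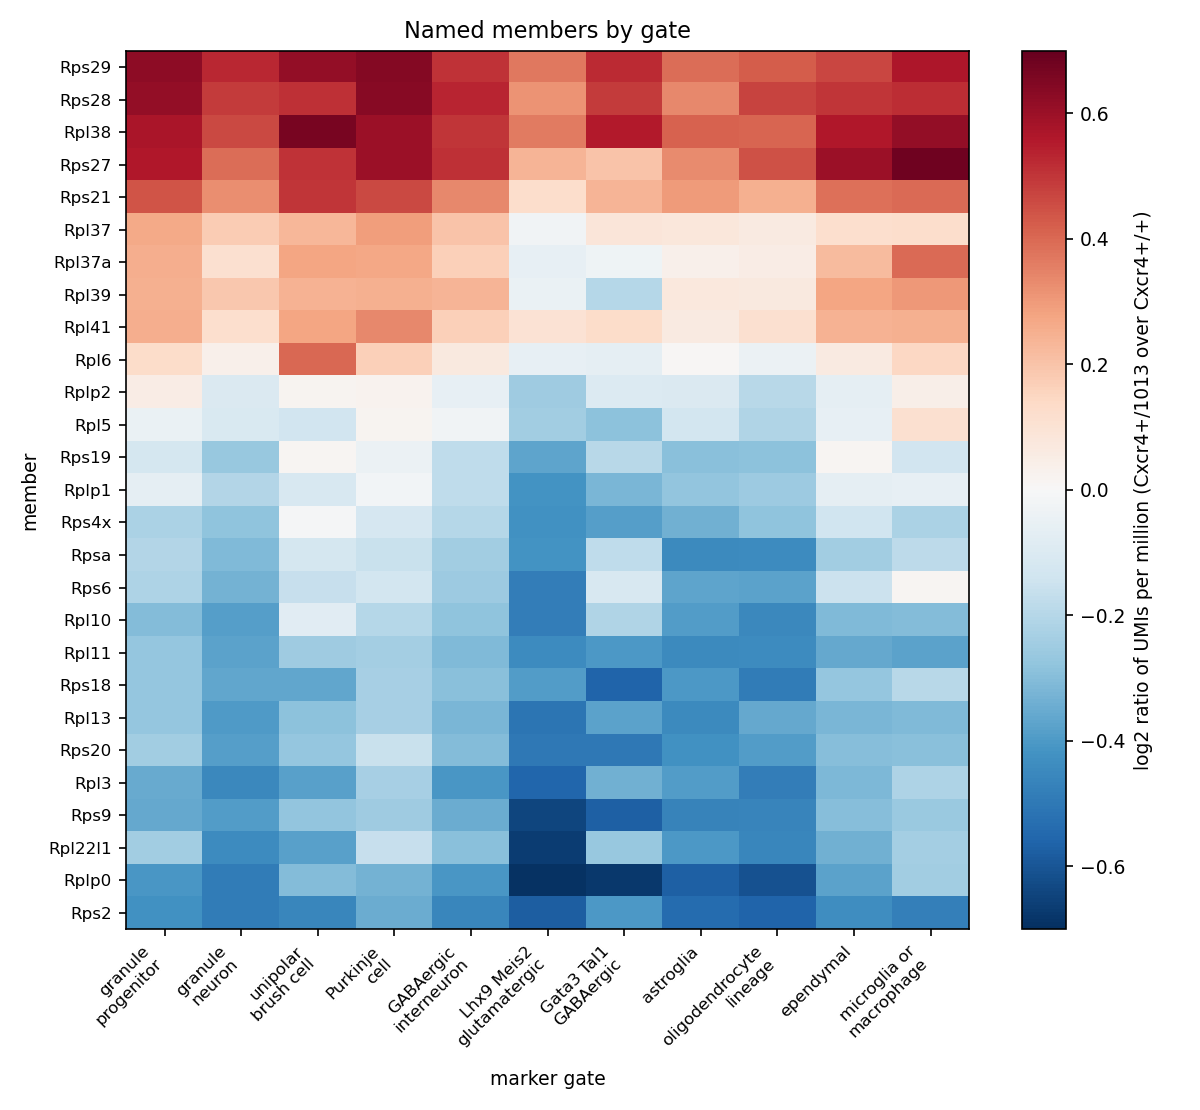
Colours give the log2 ratio of CPM (Cxcr4+/1013 over Cxcr4+/+) of named members (rows) in 11 marker gates (columns); red is higher and blue lower in the mutant library. Rows from Rps29 to Rps21 are red in every gate and rows from Rpl11 to Rps2 blue in every gate, while the Lhx9 Meis2 column has the lowest median over members, -0.39.

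How many members passed a log2 ratio of 0.32 in size differed by gate, and so did the share of all genes that did. In progenitors 4 of 80 were that much lower in the mutant library, against 5.54% of all genes, and 5 higher, against 13%. In granule neurons 28 were lower, against 7.7%, and 5 higher, against 10.1%. In Purkinje cells 2 were lower, against 8.03%, and 6 higher, against 8.91%.

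The other large counts were all of lower members. Astroglia had 39 lower, against 7.3% of all genes, and 4 higher, against 16.6%. The oligodendrocyte lineage had 39 lower, against 11.7%, and 4 higher, against 18.6%. The Lhx9 Meis2 gate had 51 lower, against 13.7%, and 2 higher, against 16.3%, and the Gata3 Tal1 gate 43 lower, against 16.8%, and 3 higher, against 19.5%.

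In the 4 gates left, members that much lower were about as frequent as, or less frequent than, such genes in general. Interneurons had 6 lower, against 8.01%, and 5 higher, against 10.5%. Ependymal cells had 11 lower, against 13.1%, and 5 higher, against 14.1%. Microglia had 9 lower, against 16.9%, and 6 higher, against 25.6%, and unipolar brush cells 4 lower, against 12.2%, and 6 higher, against 14.5%. Over all 11 gates, medians of the members ran from -0.39 to -0.09, and of all genes from 0.00 to 0.07. Of the 80 members, 50 were lower in all 11 gates, 6 were higher in all 11, and 24 were mixed. The 6 were Rps29, Rps28, Rpl38, Rps27, Rps21 and Rpl41. The same count was not made over all genes. Genes counted as deeply as these keep a direction over gates more easily than genes with few UMIs, so the counts only describe the members.

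The split within the family followed the length of the protein and hardly the subunit. Members at or under the median length of 152 amino acids had a median log2 ratio of -0.16 and longer ones of -0.31, a difference of 0.15. That difference lay between 0.12 and 0.18 in the 11 gates. Pearson's r between the log2 ratio and log2 protein length was -0.66 over 80 members, and -0.70 to -0.56 in single gates. It is a correlation across genes counted in the same 2 libraries, and genes are not replicates. The median of small-subunit members minus that of large-subunit members was -0.03, and -0.07 to 0.01 in single gates.

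By bins of length, the 3 members up to 60 amino acids had log2 ratios from 0.12 to 0.52, and the 2 from 60 to 80 had 0.46 and 0.49. The 5 from 80 to 100 ran from -0.12 to 0.42, and the 9 from 100 to 120 from -0.38 to 0.04. From 120 to 160 amino acids 28 members had a median of -0.23, and from 160 to 220 amino acids 18 had -0.32. Longer members did not continue the trend evenly: the 12 from 220 to 300 amino acids had a median of -0.27 and the 3 above -0.39.

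Over all lengths, genes outside the family did not show the same relation with protein length, at r = 0.10 over 15513 genes. Of these, 5367 encode proteins above 600 amino acids, longer than any member. The medians of these other genes were 0.04 up to 60 amino acids, -0.10 from 60 to 80, -0.14 from 120 to 160 and 0.04 above 600. By annotated transcript length, the members' medians were 0.46 up to 350 bases (3 members), 0.12 from 350 to 450 (5), -0.13 from 450 to 550 (13), -0.21 from 550 to 700 (19), -0.31 from 700 to 1000 (22), -0.26 from 1000 to 2000 (16) and -0.24 above (2). Members with shorter transcripts had a median 0.10 above that of members with longer ones, a smaller gap than by protein length. Spearman's rho over the 80 was -0.41 with transcript length and -0.58 with protein length. Each length is that of a single annotated transcript, which need not be the form used in these cells. For Rps20 it has 3706 bases, of which 357 are coding. Whether protein or transcript length goes more closely with the ratio was not tested. The 38 other genes up to 350 bases had a median of -0.02, and the medians of the other genes' longer bins ran from -0.19 to 0.06. Among other genes with at least 2000 UMIs, the 6 up to 350 bases had a median of 0.13, and 5 of them were higher. The 36 from 350 to 450 bases had -0.02, the 71 from 450 to 550 had -0.16, the 158 from 550 to 700 had -0.17 and the 3372 above 4000 had 0.09. Of 61 other genes with at least 20000 UMIs and at most 80 amino acids, 23 were higher and 38 lower in the mutant library. Their transcripts ran from 315 to 8689 bases. The highest was Atp5k, a subunit of the mitochondrial ATP synthase, with 297 CPM in the mutant and 201 in the control library, a log2 ratio of 0.56. Atp5k, Atp5md, Atp5mpl and Cops9, at the upper end, had transcripts of 371, 352, 366 and 438 bases. At the lower end, 1810037I17Rik, Mt1, Gng5 and Tomm5 had 1160, 549, 593 and 639 bases. Uqcr10, with 434 bases, was lower (log2 ratio -0.15). These genes are named after their values were seen.

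**Figure D4:**
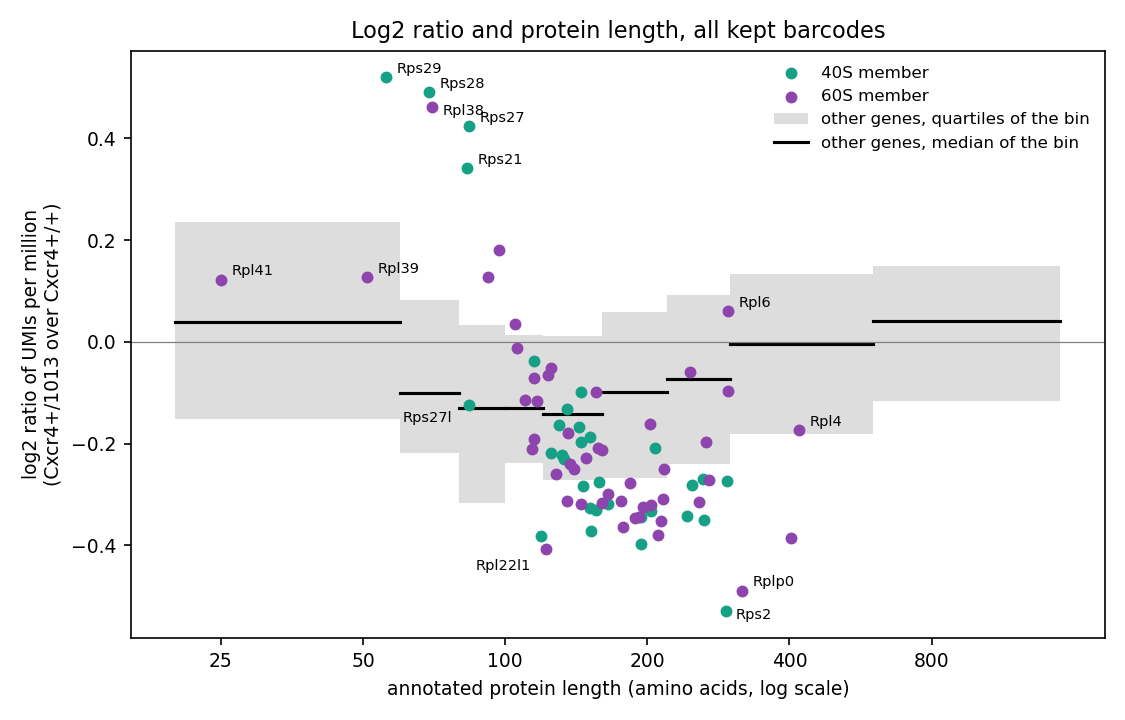
Points give the log2 ratio of CPM (Cxcr4+/1013 over Cxcr4+/+) of the 80 members against annotated protein length on a log scale, green for the small and purple for the large subunit; black lines and grey boxes give the median and quartiles of all other genes in each length bin. The 5 members with the highest ratios lie between 56 and 84 amino acids, while the other genes of those lengths centre near or below 0.

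The 8 members with the highest ratios together held 11.6% of the family's UMIs in the mutant and 8.11% in the control library. The 8 with the lowest held 10.1% and 11.9%. These sets were picked by those ratios, so the values describe them and test nothing. The 8 highest took a larger share in the mutant library in each gate, for example 15.1% in the mutant and 10.3% in the control library in microglia, and 12.5% and 8.79% in Purkinje cells.

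The start sites of members at the 2 ends were compared as letters, since ribosomal protein mRNAs are known by their pyrimidine starts. Windows of 30 bases, 10 before and 20 from the annotated start on, were taken from RefSeq (GRCm38.p6), with the longest unbroken run of C or T in capitals. The first 3 are of members with high and the last 3 of members with low ratios, at chr11:114668570-114668599 (plus strand), chr3:90213629-90213658 (minus), chr17:33824543-33824572 (minus), chr17:24720053-24720082 (plus), chr7:3704031-3704060 (plus) and chr17:33955646-33955675 (minus) in order.
Rpl38: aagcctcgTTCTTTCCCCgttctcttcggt
Rps27: cgctttcgCTCCTTTCCggcggtgacgacc
Rps28: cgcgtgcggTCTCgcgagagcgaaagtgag
Rps2: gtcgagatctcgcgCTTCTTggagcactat
Rps9: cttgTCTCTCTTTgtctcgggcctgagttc
Rps18: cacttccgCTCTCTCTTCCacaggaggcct

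A run of at least 8 was present in 24 of 75 annotated starts of the 63 members in that table (32.0%), against 11.2% of all 32851 starts. Both ends of the ranking held it: 3 of 8 starts of the highest members and 3 of 6 of the lowest. The letters CTTTCC, on either strand within RefSeq's promoter window around each start, occurred in 49.3% of the members' starts and 26.6% of all starts. A match is a description of letters and not of a factor's binding, and annotated starts need not be the ones used in these cells.

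The makeup of the family differed between cell types, in much the same way in both libraries. For most members a gate's share of family UMIs varied little: the median ratio of the highest to the lowest gate was 0.58 in the mutant and 0.57 in the control library on the log2 scale. In each library 9 members varied by more than 1 log2 unit.

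Rps27l varied most, by 3.32 in the mutant and 3.16 in the control library. It took 1.22% and 1.28% of the family's UMIs in ependymal cells and 0.122% and 0.143% in the Lhx9 Meis2 gate. Its level was 623 CPM in the mutant and 713 in the control library in ependymal cells, against 72.5 and 107 in the Lhx9 Meis2 gate. Its share of all UMIs was thus also highest in ependymal cells, although that of the family as a whole was lowest there. In progenitors its family share was 0.42% and 0.387%. Its close copy Rps27 took 1.27% and 0.768% in ependymal cells and 0.973% and 0.610% in progenitors. Rps27 was higher in the mutant library in all 11 gates whereas Rps27l was lower in 9 of 11, at 278 and 303 CPM over all barcodes.

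Rps29 took 4.29% of the family's UMIs in the mutant and 2.73% in the control library in microglia or macrophages, and between 1.82% and 2.2% in the mutant and 1.11% and 1.37% in the control library in the other 10 gates. Rps12, known in Drosophila for its part in cell competition, was also highest there, at 2.32% and 2.52%. Rpl41 was highest in ependymal cells, at 3.53% and 2.72%. Rpl10 was highest in the Lhx9 Meis2 gate, at 0.790% and 0.872%, and lowest in ependymal cells, at 0.335% and 0.379%.

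Rpl22 and its paralog Rpl22l1 differed in their gates, except that both were high in ependymal cells, at 0.897% in the mutant and 0.956% in the control library for Rpl22 and 0.578% and 0.666% for Rpl22l1. Rpl22l1 took 0.582% of family UMIs in the mutant and 0.640% in the control library in astroglia, but 0.317% and 0.347% in progenitors. Rpl22 took 0.682% and 0.710% in astroglia and 0.916% and 0.964% in progenitors. Over all barcodes both were lower in the mutant library: Rpl22l1 had 316 CPM in the mutant and 419 in the control library (log2 ratio -0.41), and Rpl22 619 and 741 (log2 ratio -0.26).

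**Figure D5:**
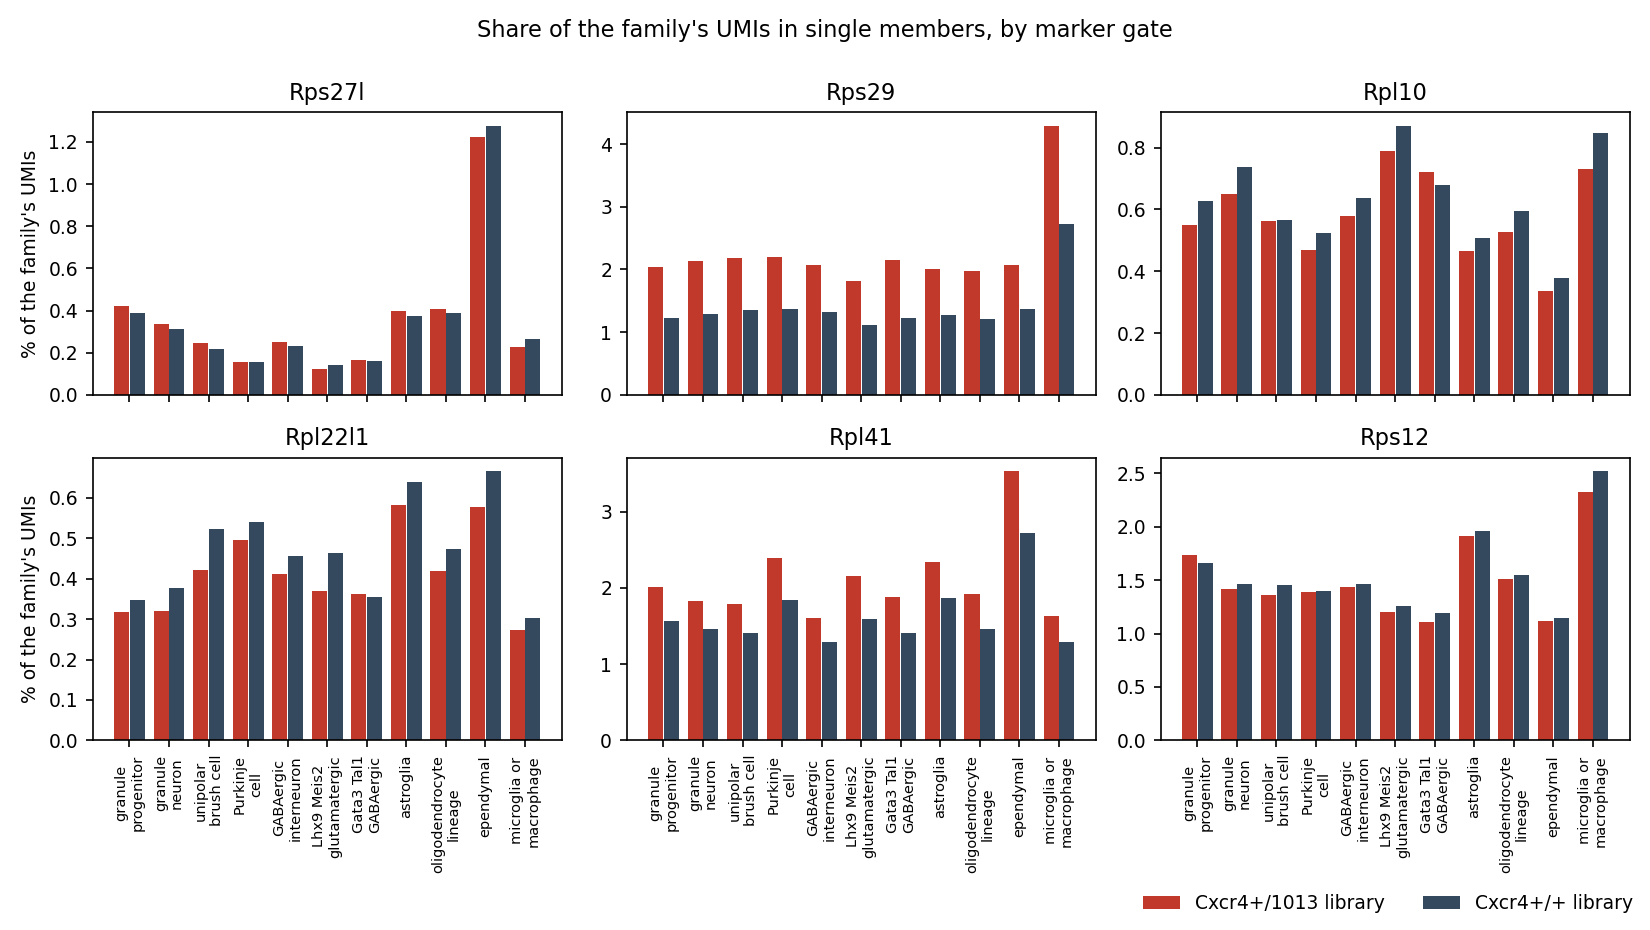
Bars give the percent of the family's UMIs held by each of the 6 members whose share varied most over 11 marker gates; red is the Cxcr4+/1013 library and dark blue the Cxcr4+/+ library, and each panel has its own axis from 0. Rps27l and Rpl41 peak in the ependymal gate and Rps29 and Rps12 in the microglia or macrophage gate in both libraries.

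Paralogs known from other tissues were nearly undetected. Rpl39l, a testis-expressed copy in mice, had 3 UMIs in the mutant and 12 in the control library, a ratio of 0.227 with a counting interval of 0.0412 to 0.843. Rpl3l, a copy of striated muscle, had 11 and 28 UMIs, and Rpl10l had 0 in both, which allows up to 3 counts in each library. Coding sequences of these copies are 85% (Rpl39 and Rpl39l), 73.2% (Rpl3 and Rpl3l) and 84.7% (Rpl10 and Rpl10l) identical to their partners. The coding sequence of Rps27rt is identical to that of Rps27, so reads within it cannot be placed between them. The last 100 bases of their annotated transcripts are 50.4% identical. For the pairs above, in order, the last 100 bases are 43.8%, 49.1% and 43.8% identical. Where reads fell along the transcripts was not examined. Rps27rt had 14.9 CPM in the mutant and 15.3 in the control library.

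Rack1 and Fau, outside the naming rule, were on the side of most members. Rack1, a scaffold on the small subunit, had 690 CPM in the mutant and 768 in the control library, a log2 ratio of -0.15. Fau, which encodes a ubiquitin-like domain fused to a ribosomal protein, had a log2 ratio of -0.16. Of 19 mRNAs listed as translation factors or other pyrimidine-tract mRNAs, Rack1 and Fau included, 18 were lower and 1 higher, with a median of -0.16. Of all genes 51.5% were lower, with a median of -0.01. Examples were the elongation factors Eef1a1, at 3597 and 3878 CPM (log2 ratio -0.11), and Eef2, at 470 and 499 (log2 ratio -0.09).

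The 78 mitochondrial ribosomal protein genes, whose products form the separate ribosome of mitochondria, had 67 lower and 11 higher in the mutant library, with a median of -0.16. Over the same barcodes 51.5% of all genes were lower and 48.5% higher, with a median of -0.01. Genes of ribosome assembly were divided, with 13 of 22 lower, 9 higher and a median of -0.01. Initiation factors and their regulators had 7 of 14 lower and 7 higher, with a median of 0.01. In progenitors the medians of these lists were -0.17 for translation factors and other pyrimidine-tract mRNAs, -0.14 for mitochondrial ribosomal proteins, 0.03 for ribosome assembly and 0.01 for initiation factors, against 0.06 for all genes.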

How the data were processed

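Both matrices held raw UMI counts per gene and barcode as the authors deposited them, not normalized. The submitters' processing notes name bcl2fastq 2.20.0.4222, Cell Ranger 7.2 and mm10; whether intronic reads were counted is not stated there. Barcodes needed 500 genes or more and 10% mitochondrial UMIs or less, and all deposited barcodes had at least 500 UMIs, so free RNA could not be measured. Doublets were not removed in the main results. Scrublet (scanpy 1.11.5) called 4.10% of mutant and 4.56% of control barcodes at its own threshold. The alternative without doublets instead left out the barcodes with the highest Scrublet scores, 7.64% of mutant and 7.67% of control barcodes. That number came from an assumed rate of 0.8% per 1000 barcodes. A barcode was gated when at least 3 markers of a list were detected and the detected share led every other list by 0.25. Sums per library and gate were scaled by total UMIs. Ratios have exact conditional binomial 95% intervals and shares Poisson ones, for counting error only; with 1 library per genotype nothing was tested. A gene needed at least 50 UMIs over both libraries in the barcodes compared. Lengths came from GENCODE M21 (GRCm38), which matched 83 of 83 members. Alternatives were edgeR 4.0.16 TMM factors, DESeq2 1.42.0 size factors, other barcode filters, gates and weights, and each sex. The calculations were tested on simulated data. Members named are the 8 highest and 8 lowest by log2 ratio, the 6 most variable over gates, those under 50 UMIs and a list by role. The members, lists and rules were chosen with earlier results of these data known. A few items are not reported here.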

Additional observations from a re-analysis of the deposited data

Results flagged for a closer look

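Rplp2, a stalk protein of the large subunit, pointed in opposite directions in the progenitor and granule neuron gates, with counting intervals clear of 0 in both. Its log2 ratio was 0.051 in the progenitor gate, with 1879 CPM in the mutant and 1813 CPM in the control library, and -0.10 in the granule neuron gate, with 769 CPM in the mutant and 825 CPM in the control library. Both gates come from the same pair of libraries, and the difference between them was not tested. TMM scaling shifts every log2 ratio of the progenitor gate by -0.06, which is more than the size of the Rplp2 value there, and DESeq2 size factors also shift them by -0.06. Under either scaling the opposite directions are therefore gone.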

How the results depend on the processing

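The family's log2 ratio over all barcodes, -0.19 as reported, was -0.19 with TMM, -0.18 with DESeq2 size factors, -0.21 with the family left out of the totals, -0.20 with at least 1000 genes and at most 5% mitochondrial UMIs, -0.21 with at least 5000 UMIs, -0.19 without Scrublet doublets, -0.11 with equal weight per barcode, -0.23 in female and -0.18 in male cells, and -0.22 over gated barcodes. Its median over gates, -0.15, was in the same order -0.17, -0.17, -0.16, -0.17, -0.20, with equal weight -0.11, and by sex -0.17 and -0.12. The members' median, -0.23, was -0.25 with the family left out of the totals, -0.24 with at least 5000 UMIs, -0.28 in female and -0.21 in male cells and -0.31 under stricter gates. Members with a log2 ratio of -0.32 or lower, 19 as reported, numbered 31 in female cells and 37 under stricter gates. The gap between shorter and longer members, 0.15, was 0.18 in female cells, 0.10 by transcript length and 0.12 without the 8 highest members.

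The progenitor share over the granule neuron share, 2.23 in the mutant and 2.09 in the control library, was 2.19 and 2.06 with the stricter barcode filter, 2.2 and 2.01 from 5000 UMIs, 2.25 and 2.11 without doublets, 2.39 and 2.44 with equal weight, 2.26 and 2.07 in male cells and 2.44 and 2.25 under stricter gates, and 2.12 for the control library in female cells. The direction turned for the family or its members' median in 5 values of single gates: with the stricter barcode filter the Purkinje family ratio was 0.23 and its members' median 0.16, with equal weight the Purkinje ratio was 0.071 and that of unipolar brush cells 0.035, and under stricter gates the ependymal ratio was 0.0065. The Rplp2 value of the progenitor gate also turned with TMM and DESeq2 scaling. The cause was not tested. Of the other values of single gates and genes, 528 stayed within the counting interval of the reported value (counts, within 1.5 times) and 221 did not. Of the values over all barcodes, medians over gates and the progenitor over granule neuron share, 39 stayed within it and 41 did not. None of these turned direction. Those outside it included 10 of 10 for the family's log2 ratio over all barcodes and 13 of 14 for the progenitor over granule neuron share. No paired analysis was possible because there is 1 library per genotype with no replicate number, and for that reason no library could be left out either.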
